A study of Mus musculus with 6 samples.

Results

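The 10 genes described here encode the 3 TGF-beta ligands (Tgfb1, Tgfb2 and Tgfb3), the 3 TGF-beta receptors (Tgfbr1, Tgfbr2 and Tgfbr3) and the 4 latent TGF-beta binding proteins (Ltbp1, Ltbp2, Ltbp3 and Ltbp4). They were taken by symbol from the 43472 gene symbols counted in each library of intervertebral disc (IVD) RNA. All 10 passed the filter on low counts, as did 16152 symbols in all. TGF-beta is made as a precursor whose cut propeptide stays wrapped around the ligand and keeps it inactive. A latent binding protein joined to the propeptide anchors most such complexes in the matrix, and integrins, proteases or other factors set the ligand free. The free ligand binds the type II receptor, which phosphorylates the type I receptor, and Smad2 and Smad3 then carry the signal to the nucleus. In the spine this pathway is known for the formation and upkeep of the annulus fibrosus and of endplate and growth plate cartilage.

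IVDs of Col2Cre;Adgrg6 f/f mutants and of control mice were each collected as 3 pools. The animals were at postnatal day 20, 2 to 3 of them gave 1 pool, and the strain is labelled C57B6/J. Adgrg6 f/f denotes 2 floxed copies of Adgrg6, an adhesion G-protein coupled receptor gene, and Col2Cre is a Cre recombinase driven by type II collagen regulatory sequence. By the study's reporter staining, this Cre acts in every compartment of the disc and also in vertebral bone and its covering, so the deletion is not limited to cartilage. The controls are Cre (-) littermates in the methods, wild type in the genotype labels and Col2Cre controls in the titles, and whether they carry floxed alleles is not given. The comparison asks how loss of Adgrg6 in the disc changes gene expression before visible disc damage.

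Counts on genes were 9061491 to 12017008 per library. Adgrg6, listed as Gpr126, was at 94.3 to 124 CPM (read counts scaled so that all libraries have the same total, after TMM adjustment) in control and 106 to 138 CPM in mutant libraries, with a log2 fold change of 0.17 (SE 0.18, adjusted p = 0.849). These counts are over all exons of the gene, and exons inside and outside the deletion were not counted apart. The values therefore do not show the deletion, and why the level was not lower in mutant libraries was not tested. Of the marker lists, the 10 cartilage genes summed to 80526 to 136653 CPM in control and 115237 to 141960 CPM in mutant libraries. These sums are mostly Col2a1, and 8 of the 10 genes had a log2 fold change below 0, with a median of -0.27 and 1 gene, Matn3, lower at an unadjusted p of 0.0178. Among all genes tested, 48.4% had a log2 fold change above 0, the median was -0.01 and 4.32% were lower at an unadjusted p under 0.05. Nucleus pulposus genes summed to 2251 to 4708 and 2918 to 5646 CPM, and Noto, one of 10 nucleus pulposus genes, was at 0 in 5 of 6 libraries. Control replicate 1 stood apart in skeletal muscle genes, whose 8 members summed to 4214 CPM there and to 70.8 to 163 CPM in the other libraries. Control replicate 3 had the lowest value of the 6 libraries for 5 of the 10 genes described here. A gene is said to have risen or fallen where its unadjusted p is under 0.05.

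Promoter windows are shown for a ligand that did not pass the test in any fit (Tgfb1), for the ligand that was lower in mutant IVDs (Tgfb2) and for a latent binder that passed an unadjusted p of 0.05 only in some fits (Ltbp1), since they differ in the elements found in them. Each window holds the 250 bases before the annotated start, 5′ to 3′ on the gene's strand, taken from RefSeq on GRCm38.p6. Capitals mark the letters searched for on both strands, namely the GC box GGGCGG in Tgfb1, the E-box CACGTG and the TATA box TATAAA in Tgfb2, and the cAMP response element TGACGTCA in Ltbp1.
Tgfb1, chr7:25686752-25687001, plus strand: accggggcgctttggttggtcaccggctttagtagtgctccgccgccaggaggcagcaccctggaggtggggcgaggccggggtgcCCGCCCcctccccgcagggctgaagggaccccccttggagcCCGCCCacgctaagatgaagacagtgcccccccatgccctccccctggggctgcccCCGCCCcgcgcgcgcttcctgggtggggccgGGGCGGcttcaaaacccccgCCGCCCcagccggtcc
Tgfb2, chr1:186705990-186706239, minus strand: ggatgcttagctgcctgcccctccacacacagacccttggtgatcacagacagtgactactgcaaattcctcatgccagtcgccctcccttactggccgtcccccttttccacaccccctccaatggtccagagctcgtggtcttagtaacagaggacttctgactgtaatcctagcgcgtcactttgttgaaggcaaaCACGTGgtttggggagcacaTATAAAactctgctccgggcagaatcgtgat
Ltbp1, chr17:75005279-75005528, plus strand: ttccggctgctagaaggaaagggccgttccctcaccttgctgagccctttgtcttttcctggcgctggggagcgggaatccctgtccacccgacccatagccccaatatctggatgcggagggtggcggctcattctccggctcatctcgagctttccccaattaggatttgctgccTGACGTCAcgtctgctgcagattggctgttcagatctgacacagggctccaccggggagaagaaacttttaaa

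The Tgfb1 window held 5 GC boxes, the nearest to the start at -16 to -11, and had 75.2% G and C. The Tgfb2 window had 53.6% G and C, with the TATA box at -31 to -26 and the E-box at -51 to -46. The Ltbp1 window held the cAMP response element at -73 to -66, and a second annotated start of Ltbp1, whose window is not shown, had none of the motifs searched. A GC box was present in windows of 4 of the 8 genes that had an entry in the table (Tgfb1, Tgfbr1, Ltbp2 and Ltbp4). Counted by window, 6 of their 12 windows held it, 3 of them windows of Ltbp4, beside 32.7% of all 32851 promoter windows. The Ltbp4 windows at chr7:27333649-27333898 and chr7:27333664-27333913 overlap nearly in full, so GC boxes that they share are counted in both. Among all windows, 12.4% held a TATA box, 6.02% the E-box and 1.55% the cAMP response element. The AP-1 element TGANTCA and the Smad palindrome GTCTAGAC, found in 6.75% and 0.167% of all windows, were in no window of these 8 genes. A match of letters is a description of the sequence and not a measured site, and the promoters of Tgfb3 and Tgfbr3 were not analysed here.

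All 10 genes were measured in every library of both genotypes, and their levels spanned a wide range. Compared per length, in CPM per kb of annotated exon, control IVDs had most RNA from the latent binder gene Ltbp3, at 51.4 ± 12.3 (SD, n = 3), then from Ltbp4 at 31.1 ± 9.19. The ligand gene Tgfb3 followed at 28.9 ± 5.40 and the coreceptor gene Tgfbr3 at 23.9 ± 3.14 CPM per kb. Tgfb1 was next at 16.8 ± 3.58, followed by the type II receptor gene Tgfbr2 at 12.4 ± 0.264 CPM per kb.
At the lower end of this order, Ltbp1 was at 6.70 ± 1.87, Tgfb2 at 4.8 ± 0.903, the type I receptor gene Tgfbr1 at 3.34 ± 0.391 and Ltbp2 at 2.5 ± 0.530 CPM per kb. Of neighbours in this order, the ranges of the 3 control libraries overlapped for Ltbp4 and Tgfb3, for Tgfb3 and Tgfbr3, and for Ltbp1 and Tgfb2. In mutant IVDs the order was the same, except that Tgfbr1 (3.85 ± 0.831) stood above Tgfb2 (3.38 ± 0.1), with ranges that overlapped each other, and Tgfb2 also overlapped Ltbp2 (3.36 ± 0.528). The place of Tgfb1 depends on the length used. With the longest transcript in place of all exons it came after Ltbp4 and ahead of Tgfb3, at 32.8 CPM per kb in control IVDs.

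**Figure D1:**
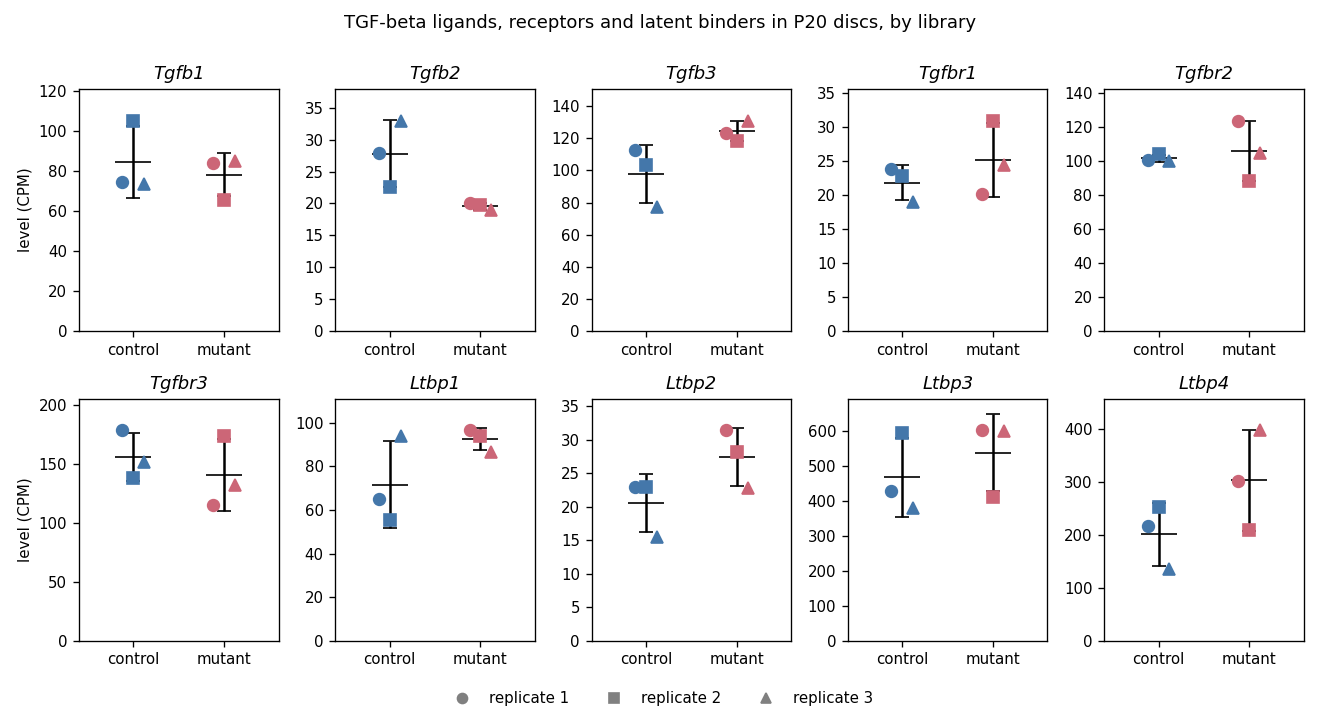
Expression of the 10 genes in each library, in CPM, with one panel per gene, control beside mutant, symbols for replicates 1 to 3, and lines for the mean ± SD (n = 3). The mutant libraries lie below all controls for Tgfb2 and above all controls for Tgfb3, while the genotypes overlap for the other 8 genes.

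No gene of the 10 passed an adjusted p of 0.05 in the comparison of mutant with control IVDs, and 1, Tgfb2, was lower at an unadjusted p under 0.05 (edgeR quasi-likelihood test, Benjamini-Hochberg adjustment over 16152 genes). Among all genes tested, 7.21% had an unadjusted p under 0.05, of which 4.32% were lower and 2.89% higher in mutant IVDs, and 1 gene, or 0.00619%, passed after adjustment. With libraries scaled by total counts alone the split of 7.57% was 6.13% lower and 1.44% higher, and Tgfb2 was again the only family gene called. DESeq2 called Tgfb2 lower and Ltbp4 higher at an unadjusted p, beside 4.62% of genes lower and 2.99% higher (7.61% in all, and 0.36% after adjustment). The same 2 genes were called by edgeR without the filter on low counts, beside 5.74% lower and 2.87% higher (8.62% in all, and 0.927% after adjustment). Limma-voom with quality weights called Ltbp1 as well, beside 4.6% lower and 4.54% higher (9.14% in all, and 0 genes after adjustment). None of the 10 genes passed adjustment in any of these fits. The log2 fold change was above 0 for 7 of the 10 genes with a median of 0.21, beside 48.4% and a median of -0.01 for all genes tested. The groups did not overlap for 2 of the 10 genes, Tgfb2 and Tgfb3, beside 11.4% of all genes (5.96% lower and 5.45% higher). In whole discs, fewer cells that make a transcript and less of it per cell cannot be told apart.

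**Figure D2:**
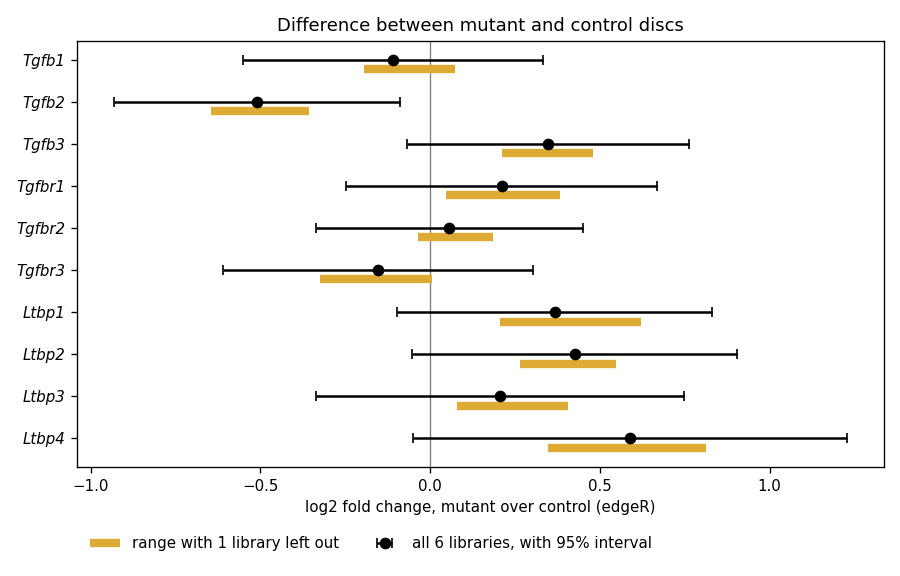
Log2 fold change of mutant over control for the 10 genes with its 95% confidence interval from edgeR, above a bar for the range obtained when any 1 library is left out. The interval of Tgfb2 lies below 0, from -0.93 to -0.09, and the intervals of the other 9 genes include 0.

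Among the ligands, Tgfb2 was lower in all 3 mutant pools. TGF-beta 2 is required for normal development of the axial skeleton, and its gene (ENSMUSG00000039239.14, chr1:186622792-186705989, minus strand) had 1482 counts over the 6 libraries. Its expression was 27.9, 22.5 and 33.0 CPM in control replicates 1, 2 and 3 and 20.0, 19.8 and 18.9 CPM in mutant replicates 1, 2 and 3. Every mutant value lay below the lowest control value, and the mutant pools differed little among themselves (19.6 ± 0.582 CPM against 27.8 ± 5.23 CPM, SD, n = 3). The fold was 0.702, a log2 fold change of -0.51 (SE 0.19, 95% confidence interval -0.93 to -0.09, unadjusted p = 0.0227, adjusted p = 0.676). Without control replicate 3, the highest library, the log2 fold change was -0.36 with an unadjusted p of 0.110. Leaving out control replicate 1, mutant replicate 1 or mutant replicate 3 gave unadjusted p-values of 0.0518, 0.0548 and 0.0655. Tgfb2 shares 295 bases at its start with the antisense gene Gm29491, which was at 2.57, 3.22 and 3.52 CPM in control and 1.94, 0.490 and 2.34 CPM in mutant libraries.

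For Tgfb3, the most abundant ligand transcript per kb of exon, all mutant libraries lay above all controls. TGF-beta 3, known for its part in palate fusion and used to drive cartilage formation in culture, is encoded at chr12:86056745-86079041 on the minus strand (ENSMUSG00000021253.7). The 3 control libraries were at 113, 103 and 77.5 CPM and the 3 mutant libraries at 124, 119 and 131 CPM. The highest control and the lowest mutant library differed by less than the spread among controls (97.8 ± 18.3 CPM in control and 124 ± 6.29 CPM in mutant IVDs). The log2 fold change of 0.35 (SE 0.19, 95% confidence interval -0.07 to 0.76) did not pass the test, with an unadjusted p of 0.0926 and an adjusted p of 0.728. Without control replicate 1, the library with skeletal muscle transcripts, it was 0.48 at an unadjusted p of 0.0384. Tgfb3 shares 5149 bases with Ttll5 on the opposite strand, whose log2 fold change was 0.23 (SE 0.20, unadjusted p = 0.261), and without a stated strand setting the reads of both genes cannot be told apart there.

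Tgfb1 encodes TGF-beta 1, the ligand released from bone and cartilage matrix, and lies at chr7:25687002-25705077 on the plus strand (ENSMUSG00000002603.15). Expression was 74.7, 105 and 73.4 CPM in control and 84.0, 65.8 and 85.1 CPM in mutant libraries. Control replicate 2 was the highest and mutant replicate 2 the lowest of the 6, and the other 4 libraries lay between 73.4 and 85.1 CPM. The log2 fold change was -0.11 (SE 0.20, 95% confidence interval -0.55 to 0.33, adjusted p = 0.923) and its sign depended on those 2 libraries, with 0.07 without control replicate 2 and 0.02 without mutant replicate 2.

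Since 1 ligand was lower and another lay above the controls, their proportions were compared within each library, where scaling between libraries has no effect. Tgfb3 made up 62.9, 55.2 and 53.1% of ligand RNA per length in control and 64.5, 68.0 and 65.8% in mutant libraries. Tgfb2 made up 9.11, 7.04 and 13.2% in control and 6.11, 6.62 and 5.55% in mutant libraries. Neither share overlapped between genotypes by this length, whereas that of Tgfb1 did (33.2 ± 4.90% in control and 27.8 ± 2.17% in mutant IVDs). The ratio of Tgfb3 to Tgfb2 per length was 6.91, 7.85 and 4.02 in control and 10.6, 10.3 and 11.9 in mutant libraries, or 6.26 ± 2.00 against 10.9 ± 0.845. The ratio was above every control value in all 3 mutant pools. That was fixed beforehand, since Tgfb3 lay above and Tgfb2 below all controls in every mutant library, and it adds no result to theirs. The ratio was formed after the values of both genes were known, so no test is given for it. With 3 against 3 libraries an exact permutation p cannot fall below 0.1. The shares depend on the length used. With the longest transcript, Tgfb3 made up 39.6 to 49.1% in control and 50.0 to 54.3% in mutant libraries and still did not overlap, while the Tgfb2 share overlapped, with 5.81% in control replicate 2 and 5.99% in mutant replicate 2. The summed ligand level was 215, 231 and 184 CPM in control and 228, 204 and 235 CPM in mutant libraries, and these sums overlapped.

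**Figure D3:**
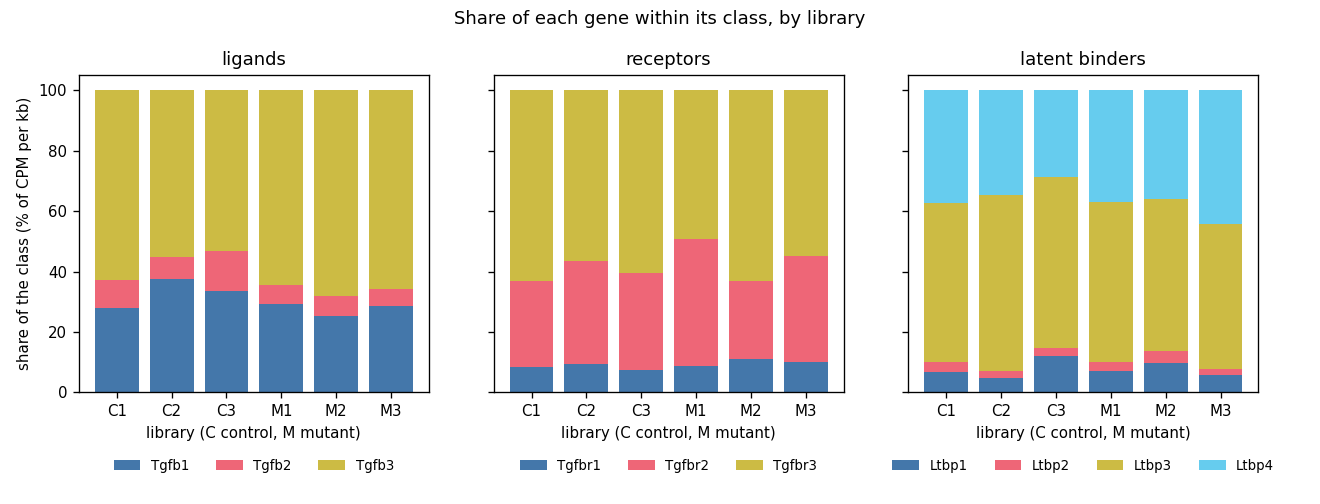
Share of each gene in the RNA of its class (ligands, receptors, latent binders), in percent of CPM per kb, for each of the 6 libraries. The Tgfb3 share is above 64% in every mutant library and at most 62.9% in controls, and the Tgfb2 share is 5.55 to 6.62% in mutant and 7.04 to 13.2% in control libraries.

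None of the 3 receptor genes passed the test in either direction. Tgfbr2, which encodes the ligand-binding type II receptor kinase (ENSMUSG00000032440.13, chr9:116084293-116175360, minus strand), was at 100.4, 104 and 99.98 CPM in control and 124, 88.2 and 105 CPM in mutant libraries. The controls were nearly equal and lay inside the mutant range, with a log2 fold change of 0.06 (SE 0.18, 95% confidence interval -0.34 to 0.45, adjusted p = 0.955). Its sign was not stable, being -0.03 without mutant replicate 1 and -0.07 with libraries scaled by total counts alone. Tgfbr1, the signalling type I receptor kinase (ENSMUSG00000007613.15, chr4:47353222-47414931, plus strand), was at 23.8, 22.8 and 18.9 CPM in control and 20.1, 30.9 and 24.4 CPM in mutant libraries. Mutant replicate 1 lay within the controls and the other 2 mutant pools above them, and the log2 fold change was 0.21 (SE 0.21, 95% confidence interval -0.25 to 0.67, adjusted p = 0.839).

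Tgfbr3 encodes betaglycan, the coreceptor that presents ligand and without which TGF-beta 2 binds the type II receptor poorly. Its gene (ENSMUSG00000029287.14, chr5:107106570-107289629, minus strand) was at 179, 138 and 152 CPM in control and 115, 174 and 132 CPM in mutant libraries. Mutant replicates 1 and 3 were below all controls and mutant replicate 2 was near the highest control, so the groups overlapped. The log2 fold change was -0.15 (SE 0.21, 95% confidence interval -0.61 to 0.30, adjusted p = 0.884), and it was 0.0065 without mutant replicate 1. Tgfbr3 made up most of the receptor RNA per length in both genotypes, with 60.1 ± 3.29% in control and 55.8 ± 7.04% in mutant IVDs. Tgfbr2 made up 31.4 ± 2.84 and 34.2 ± 8.33% and Tgfbr1 8.44 ± 0.887 and 10 ± 1.32%, and the differences in these shares were within or near 1 SD of the genotype that varied more. The summed receptor level spanned 265 to 303 CPM in control and 259 to 293 CPM in mutant libraries. As a fold of mutant over control, the 95% confidence intervals were 0.842 to 1.59 for Tgfbr1, 0.792 to 1.367 for Tgfbr2 and 0.655 to 1.234 for Tgfbr3, so differences inside each range could not be resolved with 3 pools a genotype.

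The 4 latent binder genes all had log2 fold changes above 0, and none passed the test. Ltbp4, whose product binds TGF-beta 1 and also takes part in elastic fibre assembly, had the largest log2 fold change of the 10 genes at 0.59 (SE 0.29, 95% confidence interval -0.05 to 1.23, unadjusted p = 0.0674, adjusted p = 0.704), a fold of 1.504. The gene lies at chr7:27305136-27337692 on the minus strand (ENSMUSG00000040488.17), and expression was 216, 252 and 136 CPM in control and 302, 208 and 397 CPM in mutant libraries. Mutant replicates 1 and 3 exceeded every control, while mutant replicate 2 lay among them. Unadjusted p fell under 0.05 in DESeq2 (0.0285), limma-voom (0.0409), in edgeR without the filter on low counts (0.0152), without mutant replicate 2 (0.0178) and without control replicate 2 (0.0361), and reached 0.282 without mutant replicate 3. Over all these alternatives the log2 fold change was 0.35 to 0.81.

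Ltbp3 encodes a binder known for its role in tooth and growth plate development and was the most abundant of the 10 transcripts, with 30155 counts over the 6 libraries (ENSMUSG00000024940.11, chr19:5740904-5758532, plus strand). Its expression was 429, 592 and 378 CPM in control and 601, 411 and 601 CPM in mutant libraries. The 3 highest values were those of mutant replicates 1 and 3 and of control replicate 2, and the groups overlapped (467 ± 112 CPM and 538 ± 110 CPM). This gave a log2 fold change of 0.20 (SE 0.24, 95% confidence interval -0.34 to 0.75, adjusted p = 0.860). As a share of latent binder RNA per length, Ltbp3 was 52.8, 58.2 and 56.8% in control and 52.7, 50.5 and 47.8% in mutant libraries, so the highest mutant and the lowest control share were nearly equal. The Ltbp4 share was 33.5 ± 4.44% in control and 39.1 ± 4.58% in mutant IVDs and overlapped.

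Ltbp1, which anchors latent TGF-beta to fibrillin and fibronectin, was more even in mutant than in control IVDs. The gene (ENSMUSG00000001870.16, chr17:75005568-75392512, plus strand) was at 65.3, 55.6 and 94.0 CPM in control and 96.6, 94.0 and 86.8 CPM in mutant libraries. Control replicate 3 lay among the mutants and the other 2 controls below them. The log2 fold change of 0.37 (SE 0.21, 95% confidence interval -0.10 to 0.83, unadjusted p = 0.109, adjusted p = 0.743) became 0.62 at an unadjusted p of 0.00986 without that library, and was 0.21 to 0.41 without any other.

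Ltbp2, the binder that does not bind latent TGF-beta and takes part in microfibril and elastic fibre structure, was the least abundant of the 10 per length in both genotypes. Its gene (ENSMUSG00000002020.15, chr12:84783212-84876532, minus strand) was at 23.0, 23.0 and 15.5 CPM in control and 31.4, 28.2 and 22.8 CPM in mutant libraries. Mutant replicate 3 was just below the 2 higher controls and the other mutants were above all controls. Mutant over control gave 0.43 on the log2 scale (SE 0.22, 95% confidence interval -0.05 to 0.90, unadjusted p = 0.0757, adjusted p = 0.710), and without mutant replicate 3 it was 0.55 at an unadjusted p of 0.0463. The 4 binder genes together were at 733, 923 and 623 CPM in control and 1031, 742 and 1107 CPM in mutant libraries. Mutant replicates 1 and 3 had the highest sums and mutant replicate 2 lay within the controls. The sum over the 10 genes had the same pattern, at 1251, 1419 and 1078 CPM in control and 1518, 1239 and 1604 CPM in mutant libraries.

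For the 3 genes of the family with the smallest unadjusted p, the genes with the most similar pattern over the 6 libraries were found by the root mean square difference of centred log2(CPM + 1). For Tgfb2 these were Dmap1 (0.047), Nox1 (0.0487) and Kdm4d (0.0597), where the median over all genes was 0.397. For Ltbp4 they were Ccdc102a (0.0944), Maff (0.110) and Gpc2 (0.128), with a median of 0.548, and for Ltbp2 Rpia (0.0625), Fabp5 (0.0739) and Osbp (0.0843), with a median of 0.406. No gene of the family was among these closest genes, and the most alike pairs within the family were Tgfb3 with Ltbp2 (0.170) and Tgfb1 with Ltbp3 (0.173).

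The other genes of the pathway were read from 5 lists with 76 tested genes. Of these, 9 were higher and 3 lower at an unadjusted p under 0.05, or 15.8% beside 7.21% of all genes. With edgeR after the filter on low counts, the adjusted p-values of the genes called were 0.411 to 0.691. The list of responsive genes, with 8 of 29 higher, was put together with earlier results of these libraries known. Counts pooled over the 5 lists, here and below, are therefore not independent evidence of a direction. After adjustment, 6 of the 76 genes passed in DESeq2 (Itgb6, Aspn, Postn, Cdkn1a, Col3a1 and Bhlhe40), 6 in edgeR without the filter (Aspn, Bhlhe40, Cdkn1a, Junb, Postn and Ski) and 0 in limma-voom. Among all genes, 0.36% passed adjustment in DESeq2, 0.927% in edgeR without the filter and 0 in limma-voom. DESeq2 gave 13 higher genes, beside 2.99% of all genes, and limma-voom 18, beside 4.54%. Without control replicate 3 the count of higher genes was 6, beside 1.76% of all genes, and without control replicate 1 it was 18, beside 5.25%. Of these 76 genes, 57 had a log2 fold change above 0 with a median of 0.22, against 48.4% and a median of -0.01 for all genes. In the list of latent complex activation and anchoring, 0 of 21 genes were higher and 2 were lower, with a median of 0.15. Itgb6, the beta subunit of the epithelial integrin that activates latent TGF-beta 1 and 3, fell from 2.68, 2.55 and 4.77 CPM in control to 0.569, 0.408 and 0.531 CPM in mutant libraries. The groups were well apart at these low levels, with a log2 fold change of -2.72 (SE 0.60, unadjusted p = 0.00103, adjusted p = 0.554), and without any 1 library the unadjusted p was at most 0.00743. The adjusted p from DESeq2 was 0.0321. Itgb6 had 25, 23 and 61 counts in control libraries. It had 5 in each mutant library, under the count minimum of 10. It thus passed the filter through the control group, where it was higher. P-values from fits with the filter carry that selection. In edgeR without the filter its unadjusted p was 0.000901 and its adjusted p 0.0761. Emilin1, a matrix glycoprotein that holds the TGF-beta 1 precursor back from processing, was at 594, 643 and 452 CPM in control and 415, 364 and 399 CPM in mutant libraries. All mutant values lay below all controls (log2 fold change -0.52, SE 0.20, unadjusted p = 0.0292, adjusted p = 0.676), but the unadjusted p was 0.0625 to 0.101 without any 1 library other than control replicate 3. The other abundant genes of this list, Fn1 for fibronectin and Thbs1 for thrombospondin 1, had log2 fold changes of 0.29 and 0.01 and did not pass the test. Of the 19 genes of this list not called, 4 were higher and 0 lower in at least 1 other fit. How many of all genes gained a call in this way was not counted, so no comparison can be made.

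Of 6 tested matrix proteins that bind TGF-beta, all had log2 fold changes above 0, with a median of 0.33, and 1 was higher at an unadjusted p, beside 48.4% above 0 and 2.89% higher among all genes. This was Aspn, which encodes asporin, a small leucine-rich proteoglycan, at 28.0, 20.8 and 27.8 CPM in control and 56.0, 45.7 and 43.8 CPM in mutant libraries. Its log2 fold change was 0.92 (SE 0.19, unadjusted p = 0.000524), with no overlap between genotypes, and DESeq2 gave it an adjusted p of 0.0187. The proteoglycan genes Fmod, Bgn and Dcn were far more abundant, at 1193, 502 and 152 CPM per kb over all libraries. Their log2 fold changes of 0.32, 0.54 and 0.25 did not pass in edgeR with all 6 libraries. Bgn had an unadjusted p of 0.0488 without mutant replicate 1 and of 0.0633 to 0.218 without any 1 other library. It was 0.00975 in DESeq2 and 0.0541 in limma-voom. Of 8 tested receptor partners and inhibitors, 1 was lower at an unadjusted p, beside 4.32% of all genes. Bambi, a decoy receptor that lacks the kinase and blocks signalling, fell from 17.1, 20.1 and 20.8 CPM in control to 9.22, 13.6 and 11.4 CPM in mutant libraries. Every mutant value lay below every control (log2 fold change -0.76, SE 0.22, unadjusted p = 0.00581), and the unadjusted p was at most 0.0280 without any 1 library. The more abundant Fkbp1a, Eng and Cd109 had log2 fold changes of 0.18, 0.39 and 0.11 and did not pass in edgeR. Eng was at 0.63 (unadjusted p = 0.0201) without control replicate 1 and at 0.56 (unadjusted p = 0.0451) without mutant replicate 2. Its unadjusted p was 0.181 to 0.338 without any 1 other library, 0.0280 in limma-voom and 0.0929 in DESeq2.

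Of 18 genes of the Smad cascade, 1 was higher, 0 were lower and the median log2 fold change was 0.08. This is 5.56% called, beside 7.21% of all genes. Ski, a corepressor of Smad proteins, was at 138, 151 and 88.4 CPM in control and rose to 269, 173 and 229 CPM in mutant libraries (log2 fold change 0.83, SE 0.25, unadjusted p = 0.00685). All mutant values were above all controls, and the unadjusted p was at most 0.0259 without any 1 library. The signal carriers Smad2, Smad3 and Smad4 had log2 fold changes of -0.02, 0.29 and 0.07, and the inhibitory Smad6 and Smad7 0.34 each, none of which passed in edgeR with all 6 libraries. Pmepa1, an inhibitor of Smad signalling and a known target of it, had one of 0.37. Without control replicate 1, Pmepa1 was at 0.62 (unadjusted p = 0.0103) and Smad3 at 0.44 (unadjusted p = 0.0448), and without control replicate 2 Smad6 was at 0.49 (unadjusted p = 0.0294). Without any 1 other library the unadjusted p was 0.119 to 0.323 for Pmepa1, 0.164 to 0.488 for Smad3 and 0.0547 to 0.195 for Smad6. In limma-voom the unadjusted p was 0.0420 for Smad3 and 0.0436 for Pmepa1, and in DESeq2 0.171 and 0.0814.

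Of 29 genes known to respond to TGF-beta, 8 were higher (27.6%) and 0 lower at an unadjusted p, with a median log2 fold change of 0.37, beside 2.89% higher among all genes. The list was put together with earlier results of these libraries known, so its count is not independent evidence of a direction. Postn, which encodes the matrix protein periostin, rose from 93.3, 45.5 and 51.5 CPM to 143, 150 and 135 CPM (log2 fold change 1.17, SE 0.26, unadjusted p = 0.00114). Every mutant library lay above every control, and DESeq2 gave Postn an adjusted p of 0.00529. Cdkn1a, the cell cycle inhibitor p21, rose from 64.2 to 92.6 CPM in controls to 161 to 171 CPM in mutant libraries (log2 fold change 1.02, SE 0.19, unadjusted p = 0.000268). Bhlhe40, a transcriptional repressor of clock and stress responses, had a log2 fold change of 1.13 (SE 0.26, unadjusted p = 0.00140), and Ski is also on this list. The adjusted p in DESeq2 was 0.000237 for Cdkn1a and 0.0187 for Bhlhe40.

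The other 4 higher genes were Col3a1, Col1a1, Lox and Junb. Col3a1 and Col1a1, for the fibrillar collagens III and I, had log2 fold changes of 1.08 (unadjusted p = 0.00335) and 1.05 (unadjusted p = 0.0429), and Col1a1 overlapped between genotypes. The adjusted p of Col3a1 in DESeq2 was 0.00133. Lox, the enzyme that crosslinks collagen, had one of 0.75 (unadjusted p = 0.0162). The unadjusted p of Col1a1 was 0.0803 to 0.111 without any 1 of control replicates 2 and 3 and mutant replicates 2 and 3, and that of Lox was 0.0645 without control replicate 3 and 0.0555 without mutant replicate 2. Junb, an early response gene, was at 34.5, 35.2 and 38.2 CPM in control and 179, 37.1 and 44.2 CPM in mutant libraries, and its log2 fold change of 1.27 was 0.21 (unadjusted p = 0.268) without mutant replicate 1, with an unadjusted p of 0.0657 and 0.0593 without control replicates 2 and 3. Its unadjusted p was also above 0.05 in DESeq2 (0.0744), limma-voom (0.0940) and the fit with a replicate block (0.0698). The other genes of the list did not pass in edgeR, among them Ctgf (0.51, unadjusted p = 0.156), Tgfbi (0.43, unadjusted p = 0.0630), Smad7 (0.34) and Tgfb1 itself. Ctgf was at 406 CPM in control replicate 1 and at 184 and 181 CPM in the other controls, and with control replicate 1 left out it reached 1.02 on the log2 scale (unadjusted p = 0.00195) and Tgfbi 0.58 (unadjusted p = 0.0247). Without any 1 other library the unadjusted p was 0.127 to 0.422 for Ctgf and 0.0512 to 0.212 for Tgfbi. In limma-voom the unadjusted p was 0.0352 for Ctgf and 0.0395 for Tgfbi, and in DESeq2 0.0887 and 0.0330. With a replicate block it was 0.0252 for Ctgf and 0.0792 for Tgfbi, and without the filter on low counts 0.0471 and 0.0519. Col1a2, the partner chain of Col1a1, was at 0.86 on the log2 scale (unadjusted p = 0.0590), with an unadjusted p of 0.00430 in DESeq2, 0.0234 in limma-voom, 0.0239 without the filter on low counts, 0.0164 without control replicate 1 and 0.0198 without mutant replicate 1. Of the 21 responsive genes not called, 9 were higher and 1 lower in at least 1 of the other fits, those without 1 library included. The share of all genes that gained a call in this way was not counted, so these 2 counts have no comparison. The lower gene was Prg4, which encodes the joint lubricant lubricin, at -0.55 (unadjusted p = 0.153). It was at -0.78 (unadjusted p = 0.0407) without control replicate 1 and -0.53 (unadjusted p = 0.0452) without the filter on low counts. Without control replicate 2 it was at -0.05 (unadjusted p = 0.874). Acta2, for smooth muscle actin, was at 0.61 (unadjusted p = 0.0587) and was called in DESeq2 (0.0256), in limma-voom (0.0140), in edgeR without the filter (0.01) and without any 1 of control replicate 1 and mutant replicates 1 and 2 (0.0199 to 0.0395), but was at 0.22 (unadjusted p = 0.380) without mutant replicate 3.

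**Figure D4:**
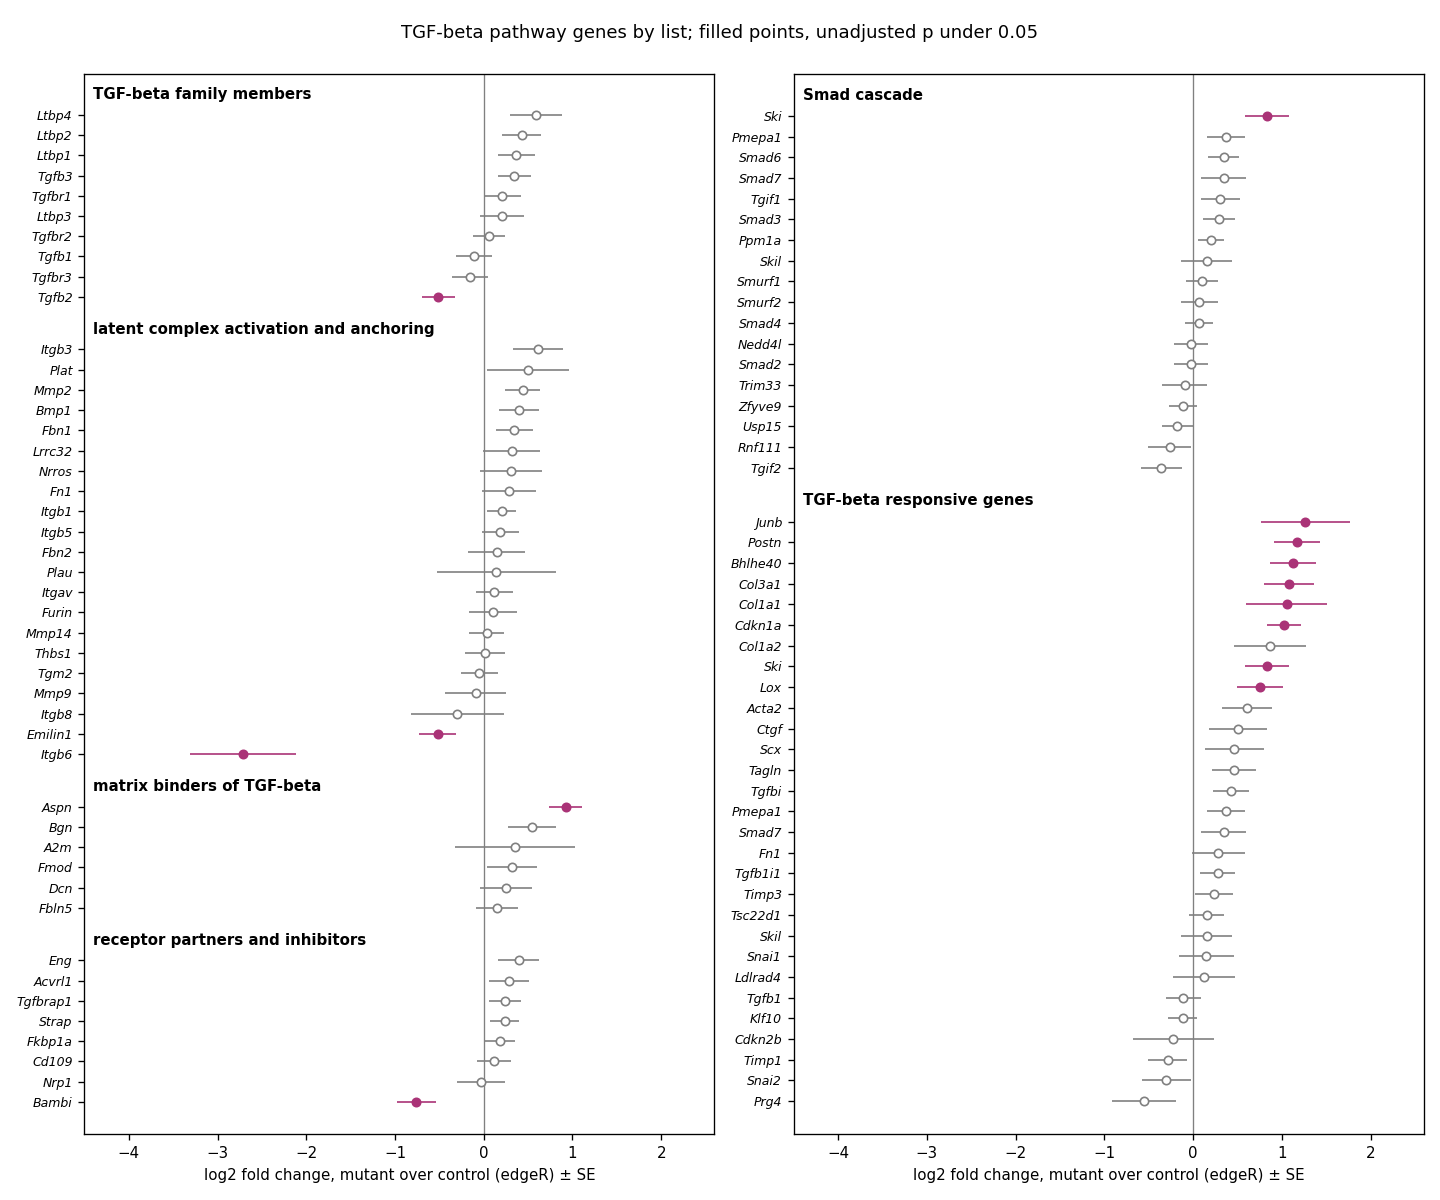
Log2 fold change of mutant over control for each tested gene of the 5 pathway lists, and for the 10 family genes, as points with SE, filled where the unadjusted p from edgeR is under 0.05. Points lie on both sides of 0 in the lists of activation, receptor partners and the Smad cascade, and 23 of 29 responsive genes lie above 0.

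Markers of tissues and cell types were read in the same libraries. The 11 genes of outer annulus and tendon summed to 29476, 22356 and 13453 CPM in control and 27479, 47853 and 43628 CPM in mutant libraries, with control replicate 3 the lowest, and 5 of the 11 were higher and 0 lower at an unadjusted p, beside 2.89% and 4.32% of all genes. The responsive list shares Col1a1, Col3a1, Col1a2 and Scx with these markers. Osteoblast genes summed to 1353, 1169 and 863 CPM in control and 1215, 1222 and 935 CPM in mutant libraries, with 2 of 8 higher and 2 lower. Hypertrophic chondrocyte genes, with 0 of 6 higher and 2 lower, were at 3042, 2336 and 1963 CPM in control and 2243, 2139 and 1880 CPM in mutant libraries.

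Of cells that carry TGF-beta 1 into tissue, macrophage genes were at 53.4, 73.4 and 78.6 CPM in control and 114, 58.9 and 78.6 CPM in mutant libraries, and genes of platelets and megakaryocytes at 29.8, 45.6 and 42.9 CPM and 38.0, 25.4 and 35.6 CPM. Both sets of values overlapped, and 1 of 8 tested macrophage genes and 0 of 3 platelet genes were higher and none lower, with medians of 0.29 and -0.11, beside 2.89% higher and 4.32% lower among all genes here and in the lists that follow. Endothelial genes were at 278, 152 and 173 CPM in control and 221, 243 and 250 CPM in mutant libraries, with 0 of 8 called. Smooth muscle and pericyte genes, which include Acta2 of the responsive list, were at 732 to 960 CPM in control and 731 to 964 CPM in mutant libraries, with 0 of 7 higher and 1 lower, the desmin gene Des, which control replicate 1 held at 127 CPM. Red blood cell precursor genes were at 342, 39.6 and 99.98 CPM in control and 274, 449 and 213 CPM in mutant libraries, with log2 fold changes above 0 for 7 of 7 tested genes, a median of 1.02 and 1 gene higher. Neutrophil precursor genes were at 16.2, 32.8 and 60.7 CPM in control and 157, 56.4 and 34.0 CPM in mutant libraries, the highest in the library with the high Junb value. Of these 9 genes, 9 had a log2 fold change above 0, with a median of 1.02, and 2 were higher, among them Mpo at 2.25 to 5.47 CPM in control and 11.8 to 30.5 CPM in mutant libraries (unadjusted p = 0.000661). Neuron and glia genes were at 225, 1656 and 579 CPM in control and 3590, 2492 and 921 CPM in mutant libraries, with 2 of 7 tested genes higher and a median log2 fold change of 1.03, and the marker Tubb3 was at 0 throughout. The part of these cells in the values of the TGF-beta genes was not tested.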

How the data were processed

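Poly(A) RNA of 6 pools of P20 mouse IVDs was sequenced in paired ends. The authors deposited, for each library, raw counts per gene symbol, which were used as given. The methods name Cutadapt, FastQC and HISAT2 with GRCm38.88, whereas the submitters' processing notes list STAR 2.5.3a, HTSeq and DESeq2 with mm10 and GRCm38, and which aligner made these counts could not be settled. The strand setting is not given in the sources used here. Reads on no gene made up 39.4 to 43.3% and unaligned reads 12.0 to 18.9%, and neither entered library sizes. A table of the authors' own comparison, with fold changes and p-values for a selection of genes, was not used.

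Genes were filtered with filterByExpr (count minimum 10), scaled by TMM and tested with edgeR 4.0.16 (quasi-likelihood test, R 4.3.3), mutant against control without a block, with Benjamini-Hochberg adjustment over all 16152 genes. CPM values use TMM library sizes. Confidence intervals are at 95%. SEs and confidence intervals come from the quasi-likelihood fit, whose dispersion includes differences between pools as well as counting error. A limit on precision read from the number of counts alone covers counting error only, and the reads carry no molecular identifiers. Coordinates and exon lengths are from GENCODE M21 (GRCm38), in which 40440 of 43472 symbols, with 97.8% of counts, matched 1 gene. The named genes are the 10 of the family, and from each pathway list every gene at an unadjusted p under 0.05 and the 3 most abundant per length. Other genes of these lists that the text names, such as Smad2, Smad3, Smad4, Smad7, Ctgf, Tgfbi, Acta2 and Prg4, fall outside this rule and were chosen after their values were seen. The genes and lists were chosen with earlier results of these data known. One gene of the list of responsive genes is not reported here and was left out of its counts. Alternatives were RLE size factors, total counts, no filter, a replicate block, DESeq2 1.42.0, limma-voom 3.58.1 with quality weights, the longest transcript as gene length, and leaving out each library. The fit was tested on simulated counts.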

Additional observations from a re-analysis of the deposited data

How the results depend on the processing

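Of 217 values recomputed under alternatives, 165 kept their direction and side of the threshold or, for counts and levels, moved little, and those that changed are given here. Leave-one-out fits gave log2 fold changes of -0.19 to 0.073 for Tgfb1, -0.65 to -0.36 for Tgfb2, 0.21 to 0.48 for Tgfb3, -0.035 to 0.19 for Tgfbr2, -0.32 to 0.0065 for Tgfbr3, 0.21 to 0.62 for Ltbp1, 0.26 to 0.55 for Ltbp2 and 0.35 to 0.81 for Ltbp4. It changed sign for Tgfb1 (0.073 without control replicate 2, 0.017 without mutant replicate 2), and for Tgfbr2 and Tgfbr3 without mutant replicate 1. The range was 0.047 to 0.38 for Tgfbr1 and 0.080 to 0.41 for Ltbp3, and neither had an unadjusted p under 0.05 in these fits. Genes at an unadjusted p numbered 618 (without control replicate 3) to 2427 (without control replicate 1), against 1164, and at an adjusted p 0 to 31, against 1. The family had 0 to 1 higher and 0 to 1 lower gene, and the pathway lists 6 to 18 higher genes, against 9. Without the filter on low counts, 2276 genes passed unadjusted and 245 adjusted, with 1 family gene higher (Ltbp4, log2 fold change 0.60) and 15 higher pathway genes. DESeq2 gave 58 genes at an adjusted p and 1 higher family gene, Ltbp4 at 0.59. Limma-voom gave 0 at an adjusted p, 2 higher family genes, Ltbp1 at 0.47 and Ltbp4 at 0.62, and 18 higher pathway genes. Total counts without scaling moved the median log2 fold change of all genes to -0.13 and Tgfbr2 to -0.069, which lies above that median. With the longest transcript, control levels per kb moved to 32.8 for Tgfb1, 3.79 for Tgfbr1, 10.7 for Ltbp1 and 81.4 for Ltbp3, and Tgfb3 was 43.0% of ligand and Ltbp3 61.2% of latent binder RNA in control IVDs. The causes were not tested, except that fewer samples or other lengths enter by construction. Replicate numbers did not pair the libraries: deviations of same-numbered libraries correlated at 0.159, -0.132 and 0.101, and 3 of 6 libraries matched best with their own number. With the replicate block, the Tgfb2 value was -0.49 on the log2 scale at an unadjusted p of 0.0486, 1002 genes passed unadjusted and 0 adjusted.

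Depth sets a floor on precision as well. The least counted of the 10 genes, Tgfbr1, had 1455 counts over the 6 libraries.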
